A study of Mus musculus with 12 samples.

Results

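The 10 Wnt ligands *Wnt1*, *Wnt2b*, *Wnt4*, *Wnt5a*, *Wnt5b*, *Wnt7b*, *Wnt10a*, *Wnt10b*, *Wnt11* and *Wnt16* were read from RNA of the mouse tibia shaft by their gene symbols. They were 10 of 47069 genes counted, and the count table held 19 Wnt genes in all. Messenger RNA had been sequenced from 12 male mice aged 8 weeks, after the marrow was flushed out, with 1 library per mouse and n = 4 mice per group. Jrt;Sost-ko mice carried 1 *Col1a1* Jrt allele, a splice-site mutation that causes dominant osteogenesis imperfecta, and no functional *Sost*, the gene for the Wnt antagonist sclerostin. Jrt;Sost-het mice carried the same *Col1a1* allele and 1 *Sost* allele, a *Sost* genotype that the labels leave out and the study's methods give. WT mice had the normal alleles of both genes. All mice had a mixed FVB/C57BL6 background, but the WT mice came from a parallel colony of their own, so that colony and genotype cannot be told apart in comparisons with WT. Mice carry a number from 1 to 4 that only names them within their group. The groups are called knockout (Jrt;Sost-ko), heterozygous (Jrt;Sost-het) and WT mice in what follows.

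Wnt ligands are secreted, lipid-modified glycoproteins that act close to the cell that makes them. In canonical signaling a ligand joins a Frizzled receptor to the co-receptor Lrp5 or Lrp6, which stabilizes beta-catenin and turns on target genes through Tcf and Lef factors. Sclerostin, made mainly by osteocytes, binds Lrp5 and Lrp6 and blocks this step. Among the ligands, *Wnt1*, *Wnt2b*, *Wnt7b*, *Wnt10a* and *Wnt10b* are usually described as canonical, and *Wnt4*, *Wnt5a*, *Wnt5b* and *Wnt11* as mainly noncanonical, although several can act in both ways. *Wnt1* mutations in humans cause a recessive form of osteogenesis imperfecta and early osteoporosis, and *Wnt16*, made by osteoblasts, is known for its effect on cortical bone thickness.

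In GRCm38, *Wnt10b* lies on chromosome 15 from 98770712 to 98778150 on the minus strand, and *Wnt1* lies beside it from 98789857 to 98793837 on the plus strand. They lie head to head, 11706 bp apart, with no other gene annotated between them. *Wnt7b* lies on the same chromosome from 85535437 to 85582473 (minus strand), and *Wnt5b* (119432531 to 119544347, minus strand) and *Wnt16* (22288227 to 22298522, plus strand) share chromosome 6. *Wnt10a* is on chromosome 1 from 74791516 to 74804179 (plus strand), *Wnt2b* on chromosome 3 from 104945272 to 104961921 (minus strand) and *Wnt4* on chromosome 4 from 137277489 to 137299726 (plus strand). *Wnt11* is on chromosome 7 from 98835112 to 98855195 and *Wnt5a* on chromosome 14 from 28504750 to 28527448, both on the plus strand. All 10 are annotated as protein coding. The 250 bases before a gene's start were read from RefSeq (GRCm38.p6), which gave 10 such windows for 7 of the 10 ligands, all but *Wnt5a*, *Wnt7b* and *Wnt10a*. Shown here are the windows of this head-to-head pair, whose levels lay far apart, of *Wnt5b*, the ligand with the highest level, and of *Wnt11*, whose window holds a motif. Each is written 5′ to 3′ along the gene's strand, from chr15:98778151-98778400 for *Wnt10b*, chr15:98789607-98789856 for *Wnt1*, chr6:119544348-119544597 for *Wnt5b* and chr7:98834862-98835111 for *Wnt11*. Capitals mark the letters CTTTGA on either strand, the core of the motif bound by Tcf and Lef factors.
Wnt10b: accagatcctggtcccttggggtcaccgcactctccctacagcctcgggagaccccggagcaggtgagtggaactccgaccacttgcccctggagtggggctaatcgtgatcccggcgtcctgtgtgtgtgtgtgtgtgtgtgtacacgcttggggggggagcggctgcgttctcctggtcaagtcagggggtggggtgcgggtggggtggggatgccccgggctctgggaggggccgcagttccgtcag
Wnt1: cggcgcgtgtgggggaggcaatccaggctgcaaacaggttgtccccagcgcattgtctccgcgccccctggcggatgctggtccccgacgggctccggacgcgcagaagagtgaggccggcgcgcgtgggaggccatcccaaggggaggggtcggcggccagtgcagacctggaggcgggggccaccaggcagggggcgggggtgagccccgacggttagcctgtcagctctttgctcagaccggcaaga
Wnt5b: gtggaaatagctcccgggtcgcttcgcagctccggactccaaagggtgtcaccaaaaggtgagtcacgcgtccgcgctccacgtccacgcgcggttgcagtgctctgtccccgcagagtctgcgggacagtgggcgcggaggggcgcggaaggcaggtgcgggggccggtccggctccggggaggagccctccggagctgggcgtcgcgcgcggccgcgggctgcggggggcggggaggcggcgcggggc
Wnt11: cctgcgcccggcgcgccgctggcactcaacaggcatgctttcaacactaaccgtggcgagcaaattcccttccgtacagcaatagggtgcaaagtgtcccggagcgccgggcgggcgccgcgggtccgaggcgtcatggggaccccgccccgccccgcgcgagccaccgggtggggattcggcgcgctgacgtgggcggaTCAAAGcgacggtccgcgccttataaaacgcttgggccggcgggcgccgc

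CpG pairs numbered 14 in the window of *Wnt10b*, 23 in that of *Wnt1*, 35 in that of *Wnt5b* and 37 in that of *Wnt11*, where the median of 32851 promoters of the same length was 6. The G and C content was 66.8%, 71.6%, 75.2% and 70.8%, against a median of 52.4%. The windows of *Wnt4* and *Wnt2b* held 44 and 36 CpG pairs, and that of *Wnt16* held 9. At further starts that are not printed, the windows held 4 and 7 CpG pairs for *Wnt5b* and 16 for *Wnt11*. Which start was in use was not tested. CTTTGA or its reverse, TCAAAG, was found in 2 of the 10 windows, once in *Wnt11* at 50 bases before the start and once at 71 bases before a further, downstream start of *Wnt5b*. Of all promoters, 13.8% held it. TATAAA or its reverse, TTTATA, stood in 12.4% of all promoters and also in the printed window of *Wnt11*.

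All 10 ligands had reads, and 9 of them had more than 3 counts in every mouse. The exception was *Wnt1*, which had between 2 and 51 counts per mouse. The other 9 ligands had at least 13 counts in each of the 12 mice, and *Wnt5b* had between 231 and 742. Reads counted on genes ranged from 24366061 to 29431764 in heterozygous, from 28255411 to 37370099 in knockout and from 28737276 to 44418863 in WT mice. Even the highest ligand was a gene of middling abundance. On the scale of CPM (counts rescaled to a common library size), *Wnt5b* stood at percentile 42.3 of the genes tested and *Wnt1* at percentile 5.57.

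*Sost*, the targeted gene, was measured first as a check of the labels. It had 39.97 ± 20.43 CPM (SD, n = 4) in heterozygous mice, 0.672 ± 0.421 CPM (SD, n = 4) in knockout mice and 53.29 ± 18.8 CPM (SD, n = 4) in WT mice. No knockout mouse reached the level of any other mouse. Markers of osteoblasts (12 of 12 genes) and osteocytes (10 of 10 genes) had more than 3 counts in all mice. Genes of other tissues were present as well, and their amounts differed between mice of a single group. The summed level of 16 skeletal muscle genes ranged from 40.3 CPM in knockout mouse 4 to 32929 CPM in WT mouse 4. WT mice 3 and 4 stood apart by skin genes. Their summed level of 18 epidermal genes was 209 and 855 CPM, where the other 10 mice had between 26.4 and 33.1 CPM, and all 18 genes had more than 3 counts in both. Comparisons with WT are therefore given with those mice and, after that, without them. In bulk RNA, fewer cells of a type and less RNA per cell cannot be told apart.

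Compared per kilobase of exon, the ligands differed widely in level. *Wnt5b* had the highest mean over the 12 mice, at 4.59 ± 1.48 CPM per kb (SD). It made up 36.4% of the level of the 10 ligands summed per kb of exon, a share that depends on the length used. *Wnt4* followed at 1.93 ± 0.509, *Wnt10b* at 1.73 ± 0.486, *Wnt16* at 1.54 ± 0.496 and *Wnt5a* at 1.07 ± 0.386 CPM per kb. The remaining ligands formed a lower tier. *Wnt10a* had 0.494 ± 0.138, *Wnt11* 0.450 ± 0.172, *Wnt2b* 0.265 ± 0.117, *Wnt7b* 0.261 ± 0.149 and *Wnt1* 0.201 ± 0.163 CPM per kb.

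Neighbours in this order were said to differ only where the mean of their log2 difference within a mouse was larger than its SD over the 12 mice. *Wnt5b* was above *Wnt4* in 12 of 12 mice, by 1.23 ± 0.362 on the log2 scale. *Wnt5a* was above *Wnt10a* in 12 of 12 mice, by 1.02 ± 0.479. The steps from *Wnt16* to *Wnt5a* and from *Wnt11* to *Wnt2b* each held in 11 of 12 mice. The steps from *Wnt4* to *Wnt10b* and on to *Wnt16* did not exceed their spread, nor did those from *Wnt10a* to *Wnt11*, from *Wnt2b* to *Wnt7b* and from *Wnt7b* to *Wnt1*. The order depends on the length used. By coding length, 4 of the 10 ligands kept their place and *Wnt5a*, which has the longest exons (7.82 kb), moved up by 2 places. *Wnt5b* stayed first, but its step above *Wnt4* was 0.49 ± 0.364 and held in 10 of 12 mice. *Wnt16* was then above *Wnt5a* in 2 of 12 mice. *Wnt1* stayed at the bottom.

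**Figure D1:**
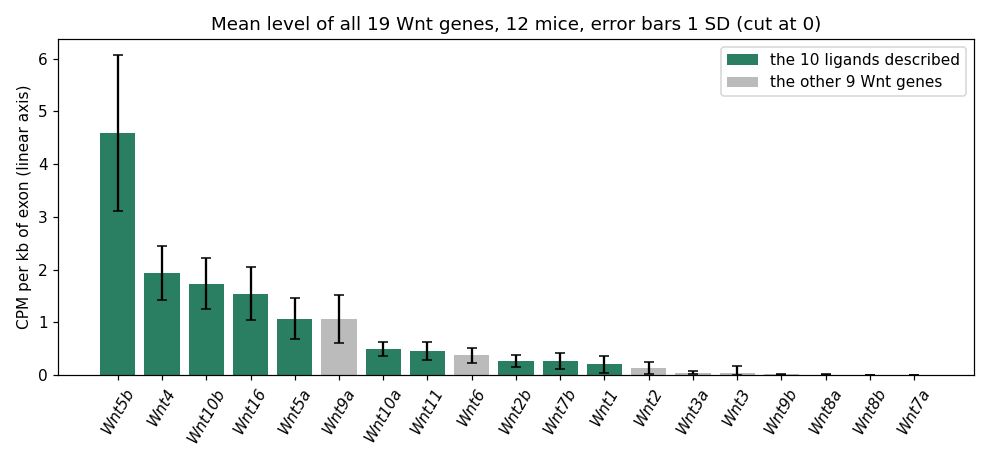
Mean level of all 19 Wnt genes in CPM per kb of exon on a linear axis (bars, 12 mice) with 1 SD, cut at 0 (error bars), the 10 ligands described in green and the other 9 in grey. *Wnt5b* stands at 4.59 CPM per kb, more than any other Wnt gene, and *Wnt9a* at 1.07 lies beside *Wnt5a*, a match that depends on the length used.

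The 4 mainly noncanonical ligands together made up 64.0 ± 5.01% of the level summed per kb of exon (SD over 12 mice), a share that also depends on the length used. Their share was 61.8 ± 6.03% in heterozygous, 67.0 ± 4.79% in knockout and 63.1 ± 3.64% in WT mice (SD, n = 4 each), so that the groups differed by about the spread within them. The 5 canonical ligands made up 23.6 ± 3.20% over the 12 mice, most of it *Wnt10b*. Close relatives were unequal in level. *Wnt5b* was above *Wnt5a* per kilobase in 12 of 12 mice, with a median ratio of 4.30 (range 3.42 to 5.54), but per kilobase of coding sequence the median ratio was 1.49 (range 1.19 to 1.92). *Wnt10b* was above *Wnt10a* in 12 of 12 mice, with a median ratio of 3.09 (range 2.55 to 8.33), or 4.56 by coding length. The neighbours *Wnt10b* and *Wnt1* had a median ratio of 9.90 (range 3.70 to 55.2), or 13.5 by coding length.

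The other 9 Wnt genes add context for the choice of 10. *Wnt9a* had between 41 and 233 counts per mouse and 1.07 ± 0.450 CPM per kb, as much as *Wnt5a*, and was the only one of the 9 with more than 3 counts in every mouse. *Wnt6*, which lies 6193 bp before *Wnt10a* on chromosome 1, had between 3 and 50 counts and 0.372 ± 0.136 CPM per kb. *Wnt2* had between 1 and 34 counts, *Wnt3a* between 1 and 12, and *Wnt9b* between 1 and 4. *Wnt7a*, *Wnt8a* and *Wnt8b* had at most 2 counts in any mouse. *Wnt3* had more than 3 counts only in WT mice 3 and 4, with 8 and 47 counts, the same mice that had epidermal genes. Whether skin RNA carried the *Wnt3* counts was not tested.

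The comparison of knockout with heterozygous mice asks whether the ligand genes change when sclerostin, the extracellular antagonist, is lost in bone with the Jrt mutation. No ligand passed the threshold for a change. Of the 10 ligands, 0 had an adjusted p under 0.05 in edgeR's quasi-likelihood test, where 0.00597% of 16739 genes tested did, namely *Sost* alone. At an unadjusted p under 0.05 the ligands also numbered 0, against 5.02% of all genes. Limma-voom called 0 of all genes, *Sost* included, and so could call 0 of the 10. DESeq2 called 0 of the 5 ligands for which it gave an adjusted p, and 15 of all genes. In 0 of the 10 ligands did the groups stand clear of each other, against 3.05% of all genes. The mean was higher in knockout mice for 5 ligands and lower for 5, with a median log2 fold change of 0.12 against 0.0013 over all genes.

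*Wnt5b* came closest to the threshold. Its levels were 13.6, 14.9, 19.8 and 9.63 CPM in knockout mice 1 to 4, and 13.3, 9.94, 9.49 and 9.68 CPM in heterozygous mice 1 to 4. Knockout mouse 4 lay among the heterozygous mice, heterozygous mouse 1 lay just below the other knockout mice, and the groups overlapped. The log2 fold change was 0.45 (SE 0.213, 95% interval of the fold 0.979 to 1.91), with an unadjusted p of 0.0632 and an adjusted p of 0.901 from edgeR. By the exact two-sided permutation test the p was 0.143, where 4 against 4 mice allow no p below 0.0286.

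*Wnt5a*, which with *Wnt5b* signals through Ror receptors, had 9.25, 9.02, 14.6 and 5.31 CPM in knockout mice 1 to 4. In heterozygous mice it had 8.79, 8.08, 6.57 and 8.34 CPM. The highest and the lowest of these 8 mice were thus both knockout mice, and the log2 fold change was 0.27 (SE 0.269). *Wnt4* had 7.80 ± 2.08 CPM in knockout and 8.44 ± 0.851 CPM in heterozygous mice (SD, n = 4), a log2 fold change of -0.11 (SE 0.196). *Wnt11* had 1.76 ± 0.660 and 1.90 ± 0.857 CPM (SD, n = 4). For this ligand the 95% interval of the fold ran from 0.528 to 1.66.

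Among the canonical ligands, *Wnt1* had the widest interval, and its value rested on single mice. Knockout mice 1 to 4 held 16, 51, 16 and 8 *Wnt1* counts, and heterozygous mice 1 to 4 held 2, 11, 21 and 6. A single mouse, knockout mouse 2, had 51 counts where the next highest of all mice had 22. The log2 fold change of 0.90 (SE 0.690) had a wide 95% interval of the fold, from 0.630 to 5.50, which includes no change. Without knockout mouse 2 the log2 fold change was 0.16, without heterozygous mouse 1 it was 0.56, and without heterozygous mouse 3 it was 1.55. *Wnt2b* had 1.49, 1.37, 2.16 and 0.426 CPM in knockout mice against 0.834, 1.08, 0.713 and 0.796 CPM in heterozygous mice. Knockout mice 1 to 3 lay above all heterozygous mice and mouse 4 lay below them, with a log2 fold change of 0.68 (SE 0.422). *Wnt7b*, a ligand that drives bone formation when it is overexpressed, had 1.51 ± 0.804 CPM in knockout and 1.001 ± 0.479 CPM in heterozygous mice (SD, n = 4). *Wnt10b*, which favors osteoblast over adipocyte formation, had 6.04 ± 2.08 and 6.17 ± 1.92 CPM (SD, n = 4), and the 95% interval of its fold was 0.609 to 1.58. *Wnt10a* had 1.04 ± 0.272 and 1.22 ± 0.384 CPM (SD, n = 4).

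*Wnt16* had the lowest log2 fold change of the 10. Its levels were 4.76, 6.72, 8.63 and 3.64 CPM in knockout mice and 8.87, 10.8, 5.63 and 5.99 CPM in heterozygous mice. Knockout mice 1 and 4 lay below all heterozygous mice, while the others overlapped with them. The log2 fold change was -0.39 (SE 0.305, 95% interval of the fold 0.473 to 1.23), with an adjusted p of 0.901 from edgeR.

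**Figure D2:**
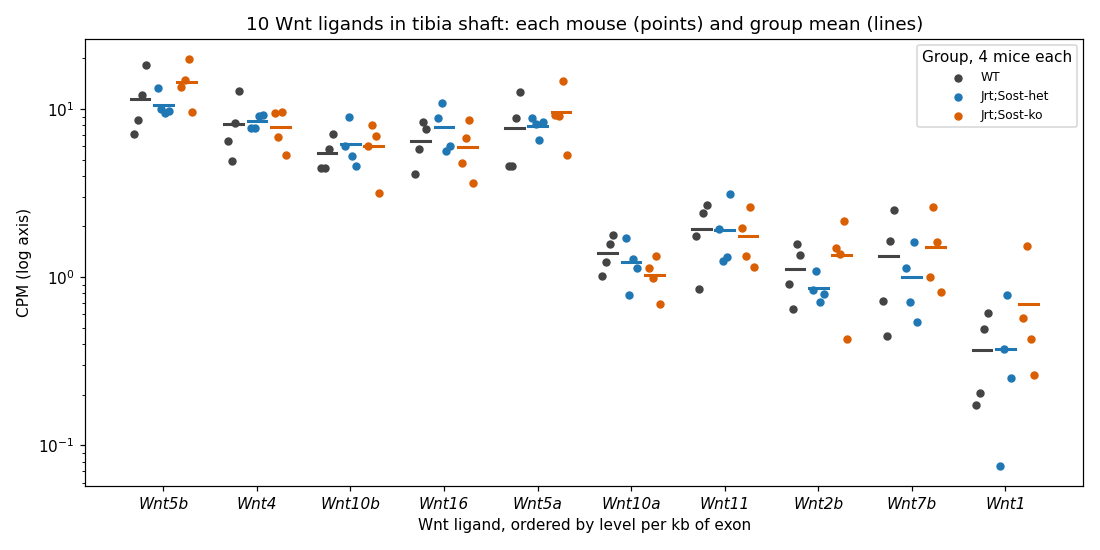
CPM of the 10 ligands on a log axis, ordered by level per kb, with a point for each mouse and a line at the mean of each group of 4 mice. The groups overlap for every ligand, and *Wnt1* has the widest spread, from 0.0758 to 1.52 CPM.

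Heterozygous and WT mice differed in the Jrt allele, in the number of *Sost* alleles and in colony, and the comparison between them cannot tell these apart. In edgeR 0 of the 10 ligands were called, and 0% of 16775 genes tested were. At an unadjusted p under 0.05 there were 0 ligands against 2.14% of all genes, and 0 ligands had groups without overlap against 1.5%. DESeq2 and limma-voom also called 0 genes, and so 0 ligands. The means were higher in heterozygous mice for 4 ligands and lower for 6, with a median log2 fold change of -0.02. *Wnt7b* had the lowest log2 fold change, -0.42 (SE 0.561), and *Wnt16* the highest, 0.28 (SE 0.285). *Wnt5b* had 10.6 ± 1.83 CPM in heterozygous and 11.5 ± 4.97 CPM in WT mice (SD, n = 4). The spread of *Wnt4*, *Wnt5a* and *Wnt5b* was larger among WT than among heterozygous mice. For *Wnt5a* the coefficient of variation was 50.4% in WT and 12.1% in heterozygous mice.

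Knockout mice were compared with the same WT libraries, so the comparisons with WT are not independent of each other. Again 0 of the 10 ligands were called by edgeR, where 0.00583% of 17155 genes tested were, which was *Sost* alone. The ligands numbered 0 at an unadjusted p under 0.05 (all genes 3.89%) and 0 had groups without overlap (all genes 2.35%). DESeq2 and limma-voom called 0 ligands, where they called only 14 and 2 of all genes. The means were higher in knockout mice for 6 ligands and lower for 4, with a median log2 fold change of 0.17. *Wnt1* had a log2 fold change of 0.90 (SE 0.616), which was 0.16 without knockout mouse 2 and 1.87 without WT mice 3 and 4, and *Wnt10a* one of -0.43 (SE 0.269). *Wnt5b* had a log2 fold change of 0.33 (SE 0.324) and *Wnt5a* of 0.32 (SE 0.407).

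**Figure D3:**
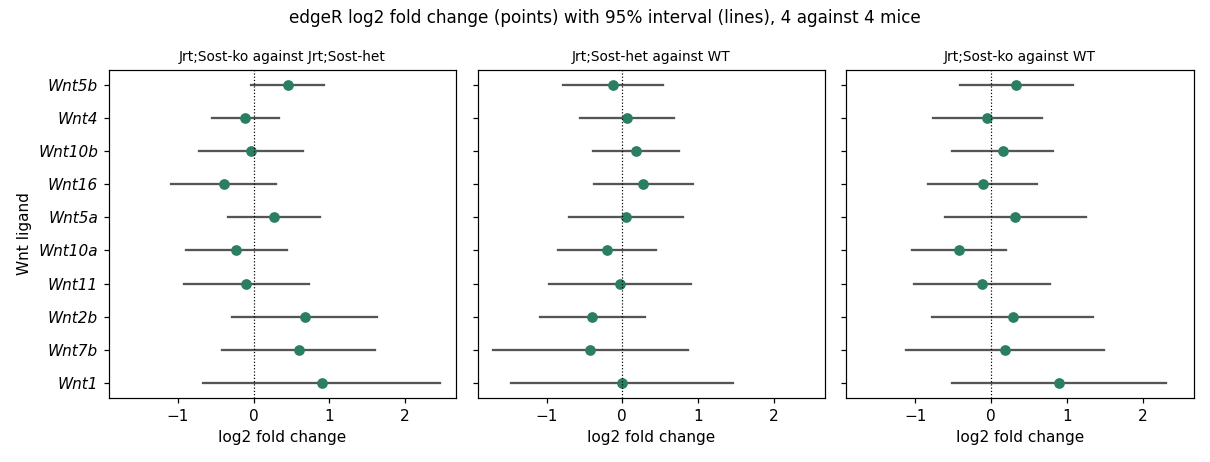
Log2 fold change of each ligand (points) with its 95% interval (lines) in the 3 comparisons of 4 against 4 mice. All 30 intervals cross 0, and the interval of *Wnt5b* in knockout against heterozygous mice comes closest to leaving it.

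The WT mice themselves fell into a lower and a higher pair. *Wnt5a* had 4.601 and 4.585 CPM in WT mice 1 and 2, and 8.88 and 12.6 CPM in WT mice 3 and 4. *Wnt5b* had 7.10, 8.62, 12.02 and 18.3 CPM, *Wnt7b* 0.717, 0.445, 1.64 and 2.52 CPM, and *Wnt1* 0.173, 0.205, 0.493 and 0.610 CPM in WT mice 1 to 4. Each of the 10 ligands was higher in both mice 3 and 4 than in both mice 1 and 2, and those were also the mice with epidermal genes. Leaving out mice 3 and 4 therefore lowers the WT mean of every ligand, so a shift of the fold changes toward higher than WT was fixed in advance. Since the ligands moved together across mice, counts of ligands in one direction are not 10 separate observations. Without WT mice 3 and 4, the means were higher in heterozygous than in WT mice for 10 of the 10 ligands (median log2 fold change 0.55) and higher in knockout than in WT mice for 9 of the 10 (median 0.63). Over all genes tested, 52.9% and 51.0% were higher, with medians of 0.018 and 0.0049. With 2 WT mice left, edgeR and limma-voom called 0 ligands in either comparison, and the smallest adjusted p from edgeR was 0.114 (*Wnt5a*, heterozygous against WT, log2 fold change 0.80, SE 0.161) and 0.333. At an unadjusted p under 0.05 there were 3 of 10 ligands in each, where all genes gave 19.8% and 12.7%. DESeq2, run on the same mice after the data were seen, called *Wnt5a* in heterozygous against WT mice (adjusted p = 0.00412) and *Wnt5b* in knockout against WT mice (log2 fold change 0.89, SE 0.282, adjusted p = 0.0489), where it called 7.16% and 2.93% of all genes. WT mice 1 and 2, which were left, had the lowest summed levels of osteoblast genes of the 12 mice, 35438 and 27365 CPM. They had the highest sums of neutrophil genes (26780 and 31727 CPM) and of erythroid genes (30567 and 27606 CPM). The part of bone, marrow, skin or muscle RNA in the differences from WT was not tested.

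The mice differed more in the sum of the ligands than the groups did. Summed over the 10 ligands, the level was 12.2 ± 1.17 CPM per kb in heterozygous, 13.4 ± 3.95 in knockout and 12.1 ± 4.49 in WT mice (SD, n = 4). It was 8.32, 8.68, 13.4 and 17.8 CPM per kb in WT mice 1 to 4, and 13.1, 14.5, 17.8 and 8.28 in knockout mice 1 to 4. Heterozygous mice 1 to 4 lay between, at 13.4, 12.9, 11.1 and 11.2 CPM per kb. WT mice 1 and 2 and knockout mouse 4 were thus the lowest of the 12, and WT mouse 4 and knockout mouse 3 the highest.

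**Figure D4:**
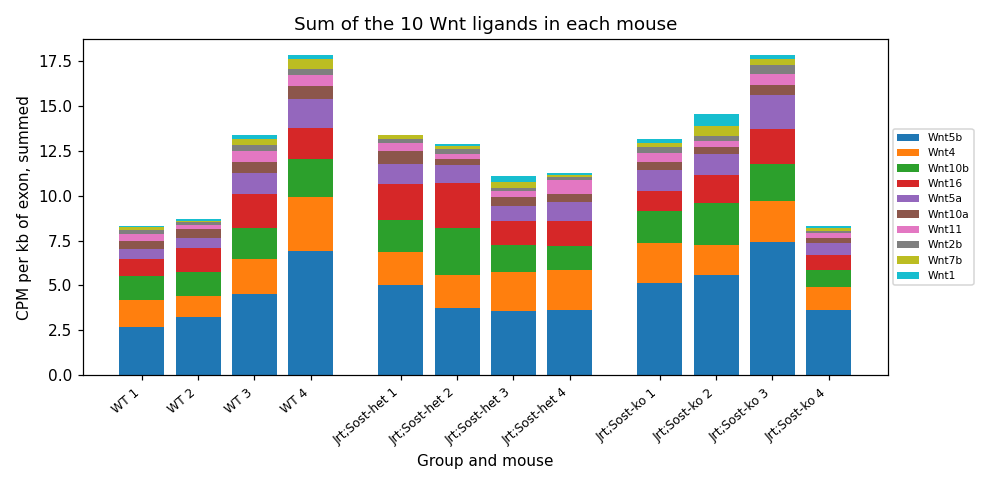
Level of the 10 ligands in CPM per kb of exon, stacked for each of the 12 mice (bars from 0). The sums run from 8.28 in knockout mouse 4 to 17.8 in WT mouse 4, and *Wnt5b* is the largest part of every bar.

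The ligands moved together across mice. Of the 45 pairs of ligands, 43 had a positive Pearson correlation of log2 CPM over the 12 mice, with a median r of 0.53. After group means were removed, all 45 were positive, with a median r of 0.62. The closest pair was *Wnt5a* and *Wnt5b* (r = 0.92, Spearman's rho = 0.97), followed by *Wnt4* and *Wnt5a* (r = 0.80) and *Wnt10b* and *Wnt16* (r = 0.79). These values are descriptions: each library enters every pair, with its own depth and tissue makeup.

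The summed ligand level was set against 12 lists of marker genes, and over all mice the osteoblast list had the highest r. Over the 12 mice, the log2 sum and the mean log2 CPM of 12 osteoblast genes had r = 0.86 and rho = 0.89. With WT mice 1 and 2 left out, which lay farthest from the median in these genes, r was 0.80. Among the 4 mice of a group r reached 0.93 (heterozygous), 0.94 (knockout) and 0.96 (WT), and without WT mice 3 and 4 it was 0.87. With only 4 mice in a group, other lists had a higher r in each: osteocyte genes in heterozygous (0.98), osteoclast genes in knockout (0.99) and epidermal genes in WT mice (0.996). For 8 genes of periosteum and tendon r was 0.85 and rho 0.81, and for 10 osteocyte genes r was 0.76 and rho 0.80. Neutrophil genes ran the other way, with r = -0.76 and rho = -0.78, which became r = -0.53 without the 2 farthest mice. For the 16 skeletal muscle genes r was 0.67 and rho 0.50, but r was -0.84 within heterozygous mice, 0.86 within WT and 0.92 within knockout mice, and 0.33 without the 2 farthest mice. For the 18 epidermal genes r was 0.51 and rho 0.55 over all mice, and -0.87 among heterozygous and 0.72 among knockout mice. Only 9 to 12 of these genes had more than 3 counts in a heterozygous mouse and 9 to 13 in a knockout mouse. The r values of those groups thus rest in part on genes that were barely detected. The osteoclast, chondrocyte, erythroid, adipocyte and endothelial lists had r between -0.63 (erythroid) and 0.71 (endothelial). Of the 12 lists compared, B cell genes had the r nearest to 0, at -0.03. In summed CPM the osteoblast genes reached from 27365 to 68743 in WT mice, from 41783 to 66329 in heterozygous mice and from 50136 to 80417 in knockout mice. The part of cell makeup in the ligand levels was not tested.

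**Figure D5:**
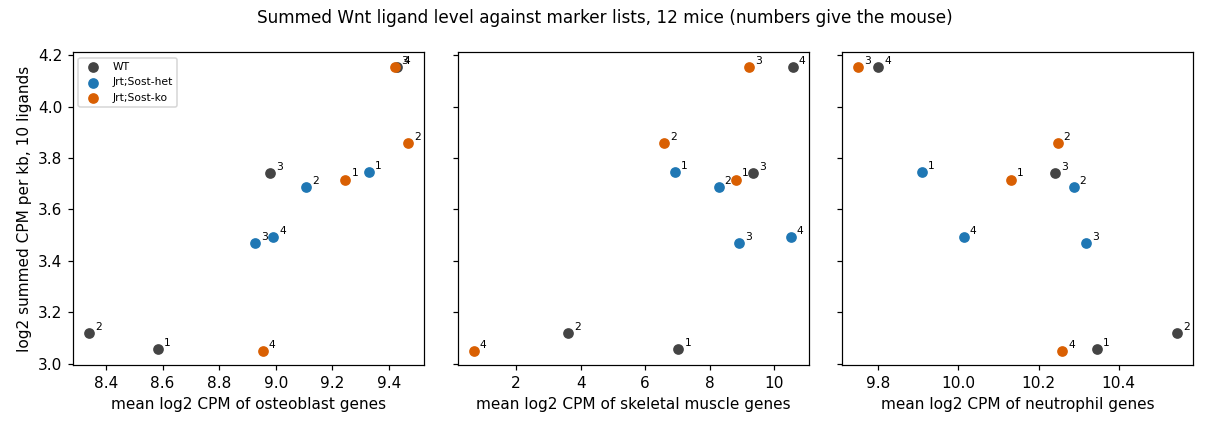
Log2 of the summed ligand level in CPM per kb (vertical axis) against the mean log2 CPM of osteoblast, skeletal muscle and neutrophil genes (horizontal axes), with a numbered point for each of the 12 mice colored by group. The points rise with the osteoblast genes (r = 0.86) and fall with the neutrophil genes (r = -0.76), while for muscle genes the heterozygous mice run against the other groups.

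For each ligand the genes with the most similar pattern over the 12 mice were listed by Pearson's r of log2 CPM. They were *Daam2* (r = 0.98), *Bace1* (0.97) and *Fhod3* (0.96) for *Wnt5a*, and *Rora* (0.97), *Sobp* (0.96) and *Fam160a1* (0.96) for *Wnt4*. *Wnt5b* had *Psd3* (0.96), *D630045J12Rik* (0.95) and *Prrc1* (0.95), and *Wnt10b* had *Ptpru* (0.95), *Plekhg4* (0.93) and *Rab23* (0.90). *Wnt7b* was nearest to *Gpat4* (0.95), *Cd63* (0.93) and *Gm11243* (0.93), and *Wnt2b* to *Atp8b1* (0.92), *Fzd1* (0.91) and *Tmem30b* (0.90). *Daam2* encodes a formin protein of the Wnt pathway and *Fzd1* a Frizzled receptor. *Wnt11* was nearest to *Ppargc1b* (0.92), *2300009A05Rik* (0.91) and *Slco5a1* (0.91), *Wnt16* to *Col8a2* (0.89), *Fat3* (0.87) and *Cux2* (0.87), *Wnt10a* to *St18* (0.89), *C130036L24Rik* (0.87) and *Kdsr* (0.86), and *Wnt1* to *Dnajc3* (0.89), *Mboat1* (0.87) and *Hsd17b12* (0.85). Without WT mice 3 and 4, the lowest r of a first gene with its ligand was 0.85 (*Wnt10a* with *St18*) and the highest was 0.98 (*Wnt5b* with *Psd3*). The mice left were among those by which the genes were picked for a high r, so these values are no separate check.

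The other steps of the pathway were read from the same fits. In knockout against heterozygous mice, 0 of 8 genes for Wnt secretion and release passed the test, 5 of them with a higher mean in knockout mice. *Porcn*, which attaches the lipid to Wnt proteins, had 5.51 ± 0.794 CPM in knockout and 6.83 ± 0.870 CPM in heterozygous mice (SD, n = 4), with an adjusted p of 0.901 from edgeR. *Tmed2*, a cargo receptor of the secretory path, had a log2 fold change of 0.12 (SE 0.0638). Of 16 receptor genes tested, 0 passed and 8 had a higher mean. *Ryk*, a receptor for several Wnt ligands, had a log2 fold change of 0.25 (SE 0.0968), and *Fzd9* of -0.71 (SE 0.356). Of 8 genes for R-spondins and their receptors, 0 passed and 5 had a higher mean. *Rnf43* and *Znrf3*, ubiquitin ligases that remove Frizzled receptors, had log2 fold changes of 0.36 (SE 0.200) and 0.16 (SE 0.151).

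Of 14 antagonists tested, 1 fell (*Sost*, log2 fold change -5.87, SE 0.485, adjusted p = 0.013 from edgeR) and 0 rose. *Dkk1*, an inhibitor of Lrp5 and Lrp6, had 26.6 ± 4.15 CPM in knockout and 15.7 ± 3.84 CPM in heterozygous mice (SD, n = 4) without overlap of the groups, but its adjusted p was 0.901. *Dkk2*, of the same family, ran the other way without overlap, with 4.22 ± 1.09 and 6.53 ± 1.22 CPM (SD, n = 4) and an adjusted p of 0.901. Both were named after their values were seen. Of 14 target genes of the canonical pathway, 0 passed, 11 had a higher mean in knockout mice, where 50.4% of all genes did, and 4 had an unadjusted p under 0.05, against 5.02% of all genes. Their median log2 fold change was 0.22, against 0.0013 over all genes and 0.12 over the 10 ligands. *Myc* had 55.9 ± 11.5 and 41.1 ± 2.47 CPM and *Tnfrsf11b*, the decoy receptor for RANKL, 16.1 ± 4.52 and 10.9 ± 1.60 CPM in knockout and heterozygous mice (SD, n = 4). In the same comparison the osteoblast genes had a median log2 fold change of 0.22 (10 of 12 higher) and the osteocyte genes one of 0.39 (8 of 10 higher, 5 at an unadjusted p under 0.05). The lists share genes: *Dkk1*, an antagonist above, and *Tnfrsf11b*, a target gene above, are also on the osteocyte list and are among these 5. The muscle genes had a median of -1.01 (0 of 16 higher) and the chondrocyte genes one of -1.72 (1 of 12 higher, 2 at an unadjusted p under 0.05). In these 4 lists 0 genes passed the threshold, and their part in the values of the target genes was not tested.

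Against WT, 0 genes of the secretion, receptor, R-spondin and target lists passed in either comparison, and *Sost* in knockout mice (log2 fold change -6.29, SE 0.466, adjusted p = 0.00895 from edgeR) was the only antagonist that did. *Sfrp2*, which binds Wnt ligands outside the cell, had 4.26 ± 1.49 CPM in heterozygous, 4.08 ± 2.04 CPM in knockout and 1.90 ± 0.604 CPM in WT mice (SD, n = 4), with an adjusted p of 1 in both comparisons. The target genes had a higher mean than WT for 8 of 14 genes in heterozygous and 11 of 14 in knockout mice. Without WT mice 3 and 4 again 0 genes of these lists passed, other than *Sost* in knockout mice (log2 fold change -6.49, SE 0.417, adjusted p = 0.021 from edgeR). The means were then higher than WT for 15 of 16 receptors, 12 of 14 antagonists and 13 of 14 target genes in heterozygous mice, and for 16 of 16, 11 of 14 and 14 of 14 in knockout mice. Of the secretion genes 6 of 8 and 7 of 8, and of the R-spondin genes 7 of 9 and 6 of 9, were higher. Over all genes tested, 52.9% and 51.0% were. WT mice 1 and 2, on which these counts rest, had the lowest summed osteoblast levels of the 12 mice (35438 and 27365 CPM). The part of cell makeup in these counts was not tested. In the same fits *Sfrp2* had log2 fold changes of 1.63 (SE 0.344, adjusted p = 0.115 from edgeR) and 1.56 (SE 0.556, adjusted p = 0.352).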

How the data were processed

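RNA of the tibia shaft of 12 mice was sequenced, 1 library per mouse. Per the labels and the study's methods, the authors used STAR to align the paired reads to GRCm38, and the values they deposited are raw counts per Ensembl gene. The counting tool, its strand setting and the annotation release are not given in the sources used here. The 12 count columns of the matrix were used. The authors' comparison tables hold fold changes and p-values and were not used, nor were their 96 columns of per-mouse values.

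The fits took 2 groups (8 mice) at a time in edgeR 4.0.16 in R 4.3.3 (filterByExpr, TMM, glmQLFit, glmQLFTest), with Benjamini–Hochberg adjustment over all genes tested and a threshold of 0.05. Levels are CPM with TMM over the 12 libraries, divided by the exon length in GENCODE M21 (GRCm38, 98.8% of identifiers found) where genes were compared. Log2 CPM used a prior count of 2. Alternatives were DESeq2 1.42.0, limma-voom (limma 3.58.1, always with a quality weight for each library), other scalings and filters, a muscle covariate, and fewer mice. The functions were tested on simulated counts.

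Named are all 10 ligands, *Sost*, other Wnt genes with over 3 counts in a mouse, list members past the threshold or else the 2 with the smallest unadjusted p, and the 3 genes most correlated with each ligand. The members and lists were chosen with earlier results of these data known. The study's methods name a comparison with littermates as a reason for the breeding, but neither they nor the labels say which mice shared a litter. The p-values measure the spread between the mice. Counts of mice in the same group differed far beyond sampling noise in all 18 pairs (chi-square divided by its degrees of freedom 23.7 to 227).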

Additional observations from a re-analysis of the deposited data

Results flagged for a closer look

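*Wnt5b* in heterozygous mouse 1 lay apart from the other heterozygous mice. It had 13.3 CPM, where the other 3 mice had between 9.49 and 9.94 CPM, and its gap to the nearest of them was 0.884 of the range of the group. Of 33 groups examined in this way (the 10 ligands and *Sost* in 3 groups), this was the only such sample, where chance gives 1.65.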

How the results depend on the processing

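Over 537 alternative values of the 30 log2 fold changes of the ligands, 73 reversed the direction and 2 passed the threshold, both from DESeq2 without WT mice 3 and 4 (*Wnt5a* in heterozygous and *Wnt5b* in knockout mice, smallest adjusted p 0.00412). Those fits of DESeq2 and limma-voom were chosen after seeing the data. The cause of the reversals was not tested. No paired analysis was possible because each library came from a different mouse and the labels do not link mice of different groups.

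In knockout against heterozygous mice, limma-voom gave 0.012 for *Wnt10b* and 0.065 for *Wnt11*, and the muscle covariate 0.12 for *Wnt10b*, 0.088 for *Wnt4* and 0.18 for *Wnt11*. Leaving out a mouse gave -0.20 to 0.21 for *Wnt10b*, -0.35 to 0.25 for *Wnt11*, -0.22 to 0.031 for *Wnt4* and -0.012 to 0.47 for *Wnt5a*. In heterozygous against WT mice, limma-voom gave 0.053 for *Wnt5b*, the muscle covariate -0.031 for *Wnt4* and -0.00064 for *Wnt5a*, and leaving out WT mice 3 and 4 gave (edgeR, DESeq2, limma-voom) 0.99, 0.97 and 0.65 for *Wnt1*, 0.13, 0.12 and 0.16 for *Wnt2b*, 0.78, 0.77 and 0.65 for *Wnt7b*, 0.13, 0.12 and 0.030 for *Wnt10a*, 0.44, 0.43 and 0.45 for *Wnt5b* and 0.53, 0.52 and 0.33 for *Wnt11*. Leaving out a mouse gave -0.66 to 0.33 for *Wnt1*, -0.056 to 0.33 for *Wnt10b*, -0.37 to 0.16 for *Wnt11*, -0.11 to 0.36 for *Wnt4*, -0.13 to 0.39 for *Wnt5a*, -0.29 to 0.19 for *Wnt5b* and -0.74 to 0.074 for *Wnt7b*. In knockout against WT mice, limma-voom gave 0.10 for *Wnt4*, the muscle covariate 0.16 for *Wnt4* and 0.12 for *Wnt11*, and leaving out WT mice 3 and 4 gave 0.46, 0.46 and 0.49 for *Wnt4*, 0.43, 0.43 and 0.43 for *Wnt11* and 0.28, 0.28 and 0.30 for *Wnt16*. Leaving out a mouse gave -0.020 to 0.36 for *Wnt10b*, -0.39 to 0.074 for *Wnt11*, -0.36 to 0.062 for *Wnt16*, -0.043 to 0.57 for *Wnt2b*, -0.22 to 0.25 for *Wnt4* and -0.21 to 0.68 for *Wnt7b*.

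Over all genes, 1 was called in knockout against heterozygous mice by edgeR, 15 by DESeq2, 0 by limma-voom, and between 0 and 3 without a mouse (0 without knockout mouse 1, 3 or 4). In knockout against WT mice 1 was called, and 14 by DESeq2, 2 by limma-voom, 2 without a filter and between 0 and 2 without a mouse (0 without knockout mouse 1, 3 or 4 or WT mouse 1 or 3). Without WT mice 3 and 4, DESeq2 called 1231 genes (1 ligand) in heterozygous and 513 (1 ligand) in knockout against WT mice, where limma-voom called 0 and 6. By coding length, 4 of the 10 ligands kept their place in the order. *Wnt1* had at most 51 counts per mouse, and without knockout mouse 2 its log2 fold change was 0.16 in both comparisons of knockout mice.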

Other observations

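*Axin2*, a feedback inhibitor and target of canonical Wnt signaling, was named after its values were seen. It was the fourth most similar gene to *Wnt5a* over the 12 mice (r = 0.96, and 0.95 without WT mice 3 and 4), although *Wnt5a* is mainly described as noncanonical. The mice behind the second r were also used to rank the genes, so that value is no separate check. In knockout against heterozygous mice the log2 fold change of *Axin2* was 0.21 (SE 0.257). The fifth most similar gene to *Wnt5b* was *Smo* (r = 0.94), the signal transducer of the hedgehog pathway, named in the same way.

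On the opposite strand of the exons of *Wnt7b*, *Wnt5a* and *Wnt11* the annotation lists *AU022754*, *Gm2670* and *Gm8398*. These had at most 4, 3 and 2 counts in any mouse. Since the strand setting of the counting is not known, reads of the partners cannot be told apart.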
